A study of Mus musculus with 10 samples.

Results

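Esrrb, Nr5a2, Nr0b1, Tfcp2l1, Tbx3 and Prdm14 encode transcription factors of the naive pluripotent state, and their nascent transcription was followed in mouse embryonic stem cells while the SOX2 protein was removed. The 6 genes were selected by name. Each of them matched 1 transcribed unit (TU) among the 16137 TUs that carry a gene symbol, of 40779 TUs in all, and all 6 had enough fragments to be tested. The 41 extragenic and antisense TUs that lie within 100 kb of the 6 genes, or overlap them, were followed with them.

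The 10 libraries came from E14 cells of genotype SOX2-FKBP, in which an FKBP degron was knocked in at both Sox2 alleles, and all of them were grown on gelatin in serum-free medium with LIF, the MEK inhibitor PD0325901 and the GSK3 inhibitor CHIR99021. The NT group (not treated, given DMSO) and the groups collected at 0.5, 1, 2 and 6 hours post depletion (hpd), which received 500 nM of the degrader dTAG-13, held 2 libraries each. In every group new RNA was labelled for 10 min with 2 mM 4-thiouridine and purified (TT_chem_seq), so a value reflects RNA made in that window and not the pool of mature mRNA. Values were scaled to each library without a spike-in. They are thus relative to the other labelled RNA, and a change shared by all units would not show. No untagged cells given dTAG-13 were analysed here, so loss of SOX2 and other effects of the compound cannot be told apart. Picked homozygous clones were used, and the sources do not say whether all libraries came from 1 clone or whether the 2 libraries of a group came from separate cultures, so p-values measure only the spread between these libraries, which may be technical.

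Naive pluripotency is the state of the preimplantation epiblast, and stem cells are held in it by LIF together with inhibition of MEK and GSK3. ESRRB and NR5A2 are orphan nuclear receptors that activate genes of this state, and NR0B1 (DAX1) is an unusual nuclear receptor that lacks the classical DNA-binding domain and represses the activity of other receptors. TFCP2L1, of the grainyhead/CP2 family, and the T-box factor TBX3 act downstream of LIF, WNT and PI3K signalling, and the PR-domain protein PRDM14 silences DNA methyltransferase and FGF receptor genes with Polycomb and the co-repressor CBFA2T2. SOX2 with OCT4 binds near many genes of the network, and the question the time course puts to these 6 genes is how soon, and how far, their transcription changes once SOX2 is gone.

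Sequences around annotated starts of the genes, and around the start of 1 extragenic unit, are shown because the time course asks how transcription of these loci depends on SOX2. An annotated start need not be the start of the unit. RefSeq promoter windows on GRCm38.p6 (300 bases, from 250 before to 50 after an annotated start) were at hand for 4 of the 6 genes, 2 each for Esrrb and Nr5a2. Each is written 5′ to 3′ on the strand of the gene, with matches to 2 motifs in capitals: the SOX core ACAAT, on either strand, and the TATA box TATAAA, also on either strand.

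Nr0b1, chrX:86191525-86191824, plus strand: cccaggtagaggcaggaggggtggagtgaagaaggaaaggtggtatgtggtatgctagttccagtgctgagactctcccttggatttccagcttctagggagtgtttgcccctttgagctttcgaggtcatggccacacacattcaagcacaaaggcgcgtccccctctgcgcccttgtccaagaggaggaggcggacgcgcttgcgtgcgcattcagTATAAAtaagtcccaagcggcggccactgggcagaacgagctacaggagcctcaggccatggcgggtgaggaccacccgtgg
Esrrb, start beside the unit, chr12:86421394-86421693, plus strand: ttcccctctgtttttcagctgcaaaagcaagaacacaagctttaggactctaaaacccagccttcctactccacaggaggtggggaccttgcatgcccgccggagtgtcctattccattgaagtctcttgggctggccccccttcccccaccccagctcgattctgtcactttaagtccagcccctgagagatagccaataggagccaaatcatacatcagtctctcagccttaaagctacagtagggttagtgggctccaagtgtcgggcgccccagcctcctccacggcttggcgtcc
Esrrb, upstream start, chr12:86360867-86361166, plus strand: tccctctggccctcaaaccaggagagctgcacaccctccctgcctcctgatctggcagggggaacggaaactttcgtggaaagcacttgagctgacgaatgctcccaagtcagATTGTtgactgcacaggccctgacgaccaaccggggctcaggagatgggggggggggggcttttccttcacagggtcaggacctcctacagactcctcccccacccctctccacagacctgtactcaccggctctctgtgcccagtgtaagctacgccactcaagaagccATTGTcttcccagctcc
Nr5a2, start beside the unit start, chr1:136953581-136953880, minus strand: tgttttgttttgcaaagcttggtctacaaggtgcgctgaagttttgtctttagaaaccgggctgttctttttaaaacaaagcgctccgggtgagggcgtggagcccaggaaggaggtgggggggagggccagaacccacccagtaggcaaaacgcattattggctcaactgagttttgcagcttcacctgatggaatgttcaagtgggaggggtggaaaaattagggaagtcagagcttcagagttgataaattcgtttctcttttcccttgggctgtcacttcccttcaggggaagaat
Nr5a2, upstream start, chr1:136960399-136960698, minus strand: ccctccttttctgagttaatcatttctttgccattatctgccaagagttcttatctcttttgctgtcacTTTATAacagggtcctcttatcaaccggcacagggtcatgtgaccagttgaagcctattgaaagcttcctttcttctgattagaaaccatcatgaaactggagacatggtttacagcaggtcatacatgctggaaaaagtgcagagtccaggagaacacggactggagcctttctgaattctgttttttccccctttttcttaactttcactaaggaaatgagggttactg
Tfcp2l1, chr1:118627695-118627994, plus strand: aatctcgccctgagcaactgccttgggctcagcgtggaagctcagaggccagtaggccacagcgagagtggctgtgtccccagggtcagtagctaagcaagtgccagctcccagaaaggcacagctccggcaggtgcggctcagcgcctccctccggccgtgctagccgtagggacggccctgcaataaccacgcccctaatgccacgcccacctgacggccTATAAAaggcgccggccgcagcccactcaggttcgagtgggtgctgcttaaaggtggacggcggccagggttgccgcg
Extragenic unit downstream of Prdm14, chr1:13084733-13085032, minus strand: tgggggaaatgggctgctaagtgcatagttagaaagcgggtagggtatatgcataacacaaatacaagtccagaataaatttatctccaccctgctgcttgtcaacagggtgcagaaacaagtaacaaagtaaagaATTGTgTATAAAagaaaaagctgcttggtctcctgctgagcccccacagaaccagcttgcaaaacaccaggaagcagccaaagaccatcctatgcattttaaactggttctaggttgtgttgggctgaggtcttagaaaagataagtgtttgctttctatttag

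The last of these was read from the genome around the start of a unit that is described with Prdm14. The start window of the antisense unit over the end of Prdm14 was read as well. It held no match to any motif searched and is not printed. The TATA box stood 32 bases before the annotated start of Nr0b1 and 28 bases before that of Tfcp2l1, and on the opposite strand 181 bases before the upstream start of Nr5a2. It occurred, on either strand, in 13.6% of the 32851 RefSeq promoter windows. The upstream Esrrb window held 2 SOX core matches, the windows of Nr0b1 and Tfcp2l1, both of Nr5a2 and the Esrrb window beside the unit held none, and 31.0% of all promoter windows held at least 1. 3 further motifs were searched on both strands, the POU octamer ATGCAAAT, the SOX2-OCT4 composite motif (a SOX part and an octamer part read together) and the ESRRB motif AAGGTCA, and none was in the windows shown. They were present in 1.74%, 0.289% and 4.72% of promoter windows. A match here is a match of letters, not a bound site, and the absence of a match says nothing about binding elsewhere.

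Of the 6 genes, Nr0b1 and Prdm14 were called lower at every time point from 0.5 h, Tbx3 from 2 h, and Esrrb and Nr5a2 at 6 h, while Tfcp2l1 was not called at any time. A TU was called at an adjusted p under 0.05 over all 28459 tested TUs (edgeR quasi-likelihood test, Benjamini-Hochberg adjustment). The members called lower were 2 of 6 at 0.5 h, where 0.787% of all tested TUs were called lower, 2 at 1 h (background 3.61%), 3 at 2 h (5.57%) and 5 at 6 h (9.2%). The count at 1 h was 5 with scaling to library totals, which also gave 5 at 2 h, and 5 with only the libraries compared, through calls of Esrrb, Nr5a2 and Tbx3. With the replicate number as a block, Tbx3 was called at 1 h and Esrrb and Nr5a2 at 2 h. All TUs called lower at 1 h rose too, from 1026 to 1233 with library totals, 1264 with only the libraries compared and 1747 with the block. The median log2 fold change of the 6 genes against NT was -0.27, -0.37, -0.40 and -0.58 at the 4 time points in order, beside medians over all tested TUs of -0.02, -0.04, -0.04 and -0.04. None was called higher, beside 0.527%, 2.15%, 4.26% and 6.61% of all tested TUs, and none had a positive change with an unadjusted p under 0.05 in edgeR. DESeq2 also called 0 of them higher. All 4 comparisons share the same 2 NT libraries. In a bulk library, fewer cells that transcribe a gene and less transcription per cell cannot be told apart.

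**Figure D1:**
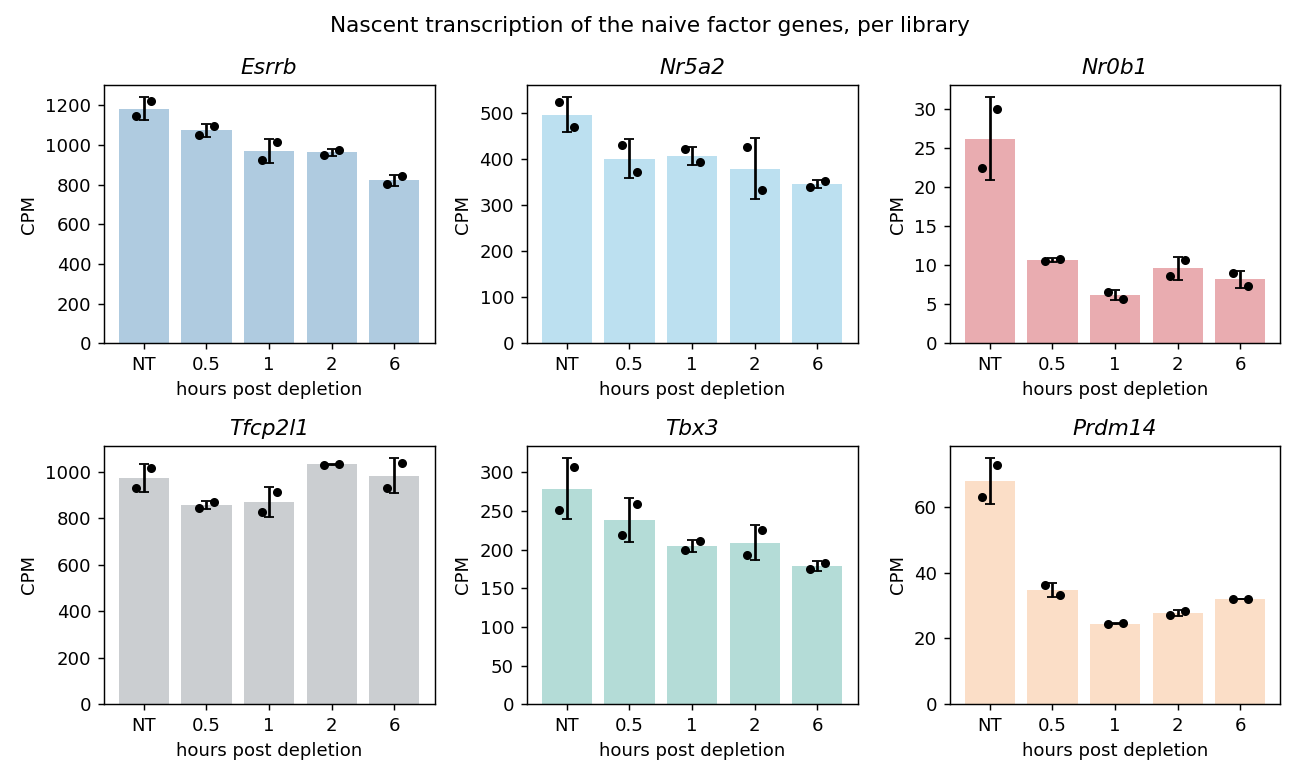
Level of the 6 genes in CPM in each library (points), with the group mean (bar) and SD (error bar, n = 2), against hours post depletion; each panel has its own axis from 0. The depleted Nr0b1 and Prdm14 libraries all lie below both NT libraries, whereas the Tfcp2l1 values at 6 h, 929 and 1037 CPM, span about the NT range.

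The genes differed widely in their level before depletion. Levels are given as CPM, fragment counts scaled to a common effective library size. Per kb of unit, the NT mean was 13.4 ± 1.91 CPM (SD, n = 2) for Tbx3, 9.82 ± 0.612 for Tfcp2l1, 9.18 ± 0.440 for Esrrb, 4.14 ± 0.318 for Nr5a2, 3.80 ± 0.773 for Nr0b1 and 2.87 ± 0.295 for Prdm14. Neighbours in this order whose NT libraries overlapped were Tfcp2l1 with Esrrb and Nr5a2 with Nr0b1. The units are those of the authors' segmentation and run past the annotated gene end by 2.7 kb (Nr0b1) to 34.7 kb (Tfcp2l1), so a level per kb is an average over gene and flank. At 6 h the order of the means per kb was Tfcp2l1 at 9.92, Tbx3 at 8.60, Esrrb at 6.37, Nr5a2 at 2.89, Prdm14 at 1.36 and Nr0b1 at 1.19 CPM.

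Nr0b1 had the steepest decrease of the 6 genes. Its unit (chromosome X, 86191769 to 86198651, plus strand) starts 0.005 kb before the annotated start given in the deposited table, downstream of the TATA box printed above. It had 22.4 and 29.9 CPM in the NT libraries, 10.5 and 10.9 at 0.5 h, 6.65 and 5.75 at 1 h, 8.59 and 10.6 at 2 h and 8.99 and 7.40 at 6 h. All 8 depleted libraries lay far below both NT libraries, and the lowest pair was that at 1 h. The log2 fold change against NT was -1.29 ± 0.170 (SE) at 0.5 h, with an adjusted p of 0.00127, and -2.08 ± 0.180 at 1 h, with an adjusted p of 6.88e-06. It was -1.45 ± 0.170 at 2 h (adjusted p = 5.73e-05) and -1.68 ± 0.175 at 6 h (adjusted p = 1.21e-05). At 1 h 23.7% of the NT mean was left. These values rest on 101 to 412 fragments a library, and all 4 calls were kept without any 1 of the 10 libraries, with the 1 h value between -2.26 and -1.83.

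Prdm14 fell as well at 0.5 h. Its unit (chromosome 1, 13104970 to 13128604, minus strand) held 62.9 and 72.7 CPM in the NT libraries, 36.3 and 33.3 at 0.5 h, 24.4 and 24.6 at 1 h, 27.1 and 28.3 at 2 h and 32.0 and 32.1 at 6 h. Every depleted library was below both NT libraries, the means at 2 and 6 h were higher than that at 1 h, and the libraries of those times did not overlap. Against NT this was a log2 fold change of -0.96 ± 0.108 (SE) at 0.5 h (adjusted p = 4.01e-04), -1.47 ± 0.111 at 1 h (adjusted p = 2.41e-06), -1.29 ± 0.109 at 2 h (adjusted p = 3.34e-06) and -1.08 ± 0.109 at 6 h (adjusted p = 8.85e-06). The level relative to NT thus went from 36.1% at 1 h to 47.3% at 6 h. The comparison of 6 with 1 h gave a log2 fold change of 0.39 ± 0.112, which did not pass over all TUs (adjusted p = 0.0628; unadjusted p = 0.00356).

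**Figure D2:**
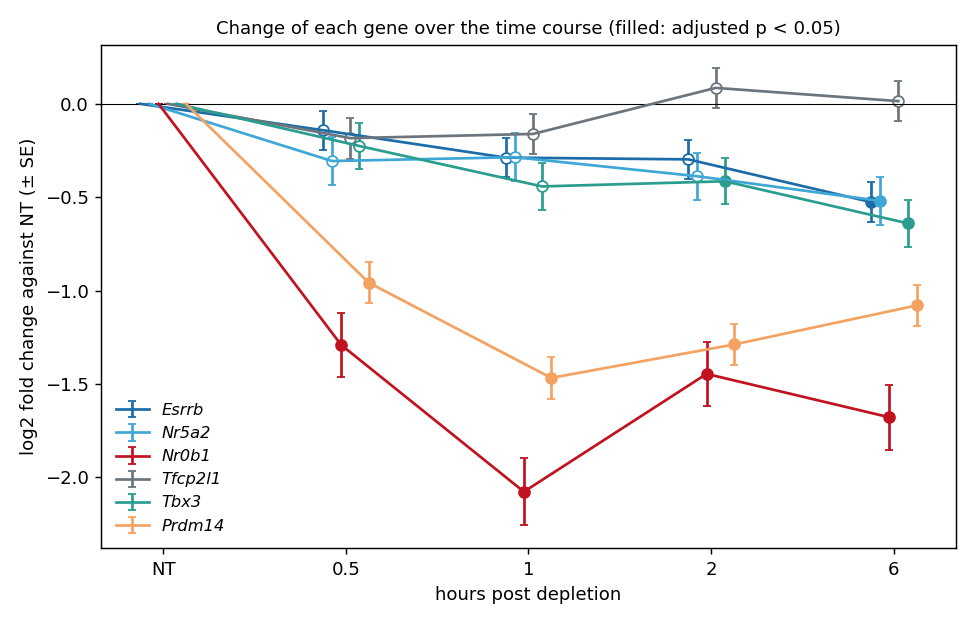
Log2 fold change against NT of each gene at the 4 time points (y axis; bars are SE of the fit over all 10 libraries), with filled points at an adjusted p under 0.05; the NT point is 0 by definition. Nr0b1 and Prdm14 are lowest at 1 h, at -2.08 and -1.47, while Esrrb, Nr5a2 and Tbx3 stay between -0.14 and -0.64.

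Several units around Prdm14 were lower as well. An antisense unit on the plus strand (chromosome 1, 13056400 to 13109615) overlaps the last 4.64 kb of the Prdm14 unit and runs 53.2 kb in all. It had 25.8 and 30.4 CPM in the NT libraries, 13.6 and 12.4 at 0.5 h, 8.40 and 8.77 at 1 h, 8.54 and 10.7 at 2 h and 10.0 and 8.15 at 6 h. All depleted libraries were below both NT libraries, and the low values persisted to 6 h. Its log2 fold change was -1.11 ± 0.152 (SE) at 0.5 h (adjusted p = 0.00156), -1.71 ± 0.158 at 1 h (adjusted p = 1.21e-05), -1.55 ± 0.155 at 2 h and -1.63 ± 0.158 at 6 h (adjusted p = 6.08e-06).

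On the strand of Prdm14, an extragenic unit (chromosome 1, 13057151 to 13084782) begins 20.2 kb beyond the end of the Prdm14 unit, and its start window is the last sequence printed above. In that window a SOX core match on the opposite strand stood 114 bases before the start, a match found in 31.8% of the start windows of the 13462 tested extragenic and antisense TUs. Its CPM was 9.63 and 14.1 in NT, 3.98 and 5.64 at 0.5 h, 3.20 and 3.13 at 1 h, 2.02 and 3.51 at 2 h and 2.67 and 3.09 at 6 h. No depleted library reached the NT range. On the log2 scale the change was -1.34 ± 0.254 (SE) at 0.5 h (adjusted p = 0.0148), -1.90 ± 0.265 at 1 h (adjusted p = 4.04e-04), -2.11 ± 0.268 at 2 h and -2.03 ± 0.271 at 6 h (adjusted p = 1.14e-04). The 0.5 h call was lost without NT replicate 2 (-1.04) or 0.5hpd replicate 1 (-1.07), and the calls at later times were kept without any 1 library.

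Between that unit and Prdm14 lies Gm39592, a predicted gene whose unit (chromosome 1, 13088377 to 13104959, minus strand) starts 0.011 kb beyond the end of that of Prdm14. It had 3.43 and 3.34 CPM in NT and 1.07 and 1.03 at 1 h, and was called lower at 1, 2 and 6 h with log2 fold changes of -1.69 ± 0.297, -1.54 ± 0.287 and -1.97 ± 0.311 (SE). Since the units abut on 1 strand, transcription that runs on from Prdm14 cannot be told apart from a separate start. Another antisense unit, over the start of Prdm14 (13124545 to 13139138, plus strand), had 2.22 and 2.47 CPM in NT and 0.281 and 0.524 at 6 h. It was called lower at 2 h (-1.25 ± 0.348, adjusted p = 0.0331) and 6 h (-2.49 ± 0.418, adjusted p = 8.45e-04), on a mean of 20.4 fragments a library. DESeq2 did not call it at 2 h (adjusted p = 0.119), nor did edgeR without NT replicate 1 (-1.33), NT replicate 2 (-1.17) or 2hpd replicate 1 (-1.07). The other 3 tested extragenic units within 100 kb of Prdm14, which lie 52.9 to 88.2 kb from it, were not called and stood at 72.8%, 73.9% and 80.3% of their NT means at 6 h.

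Ncoa2, a nuclear receptor coactivator gene that lies 2.56 kb upstream of the Prdm14 unit on the same strand, moved the other way. Its libraries held 191 and 182 CPM in NT, 186 and 173 at 0.5 h, 181 and 182 at 1 h, 239 and 180 at 2 h and 231 and 257 at 6 h. Only the 6 h libraries both lay above NT, with a log2 fold change of 0.39 ± 0.125 (SE) and an adjusted p of 0.0459, which became 0.0607 when TUs averaging under 50 fragments were left out and was 0.0662 to 0.245 without either library of NT, 1hpd or 6hpd.

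**Figure D3:**
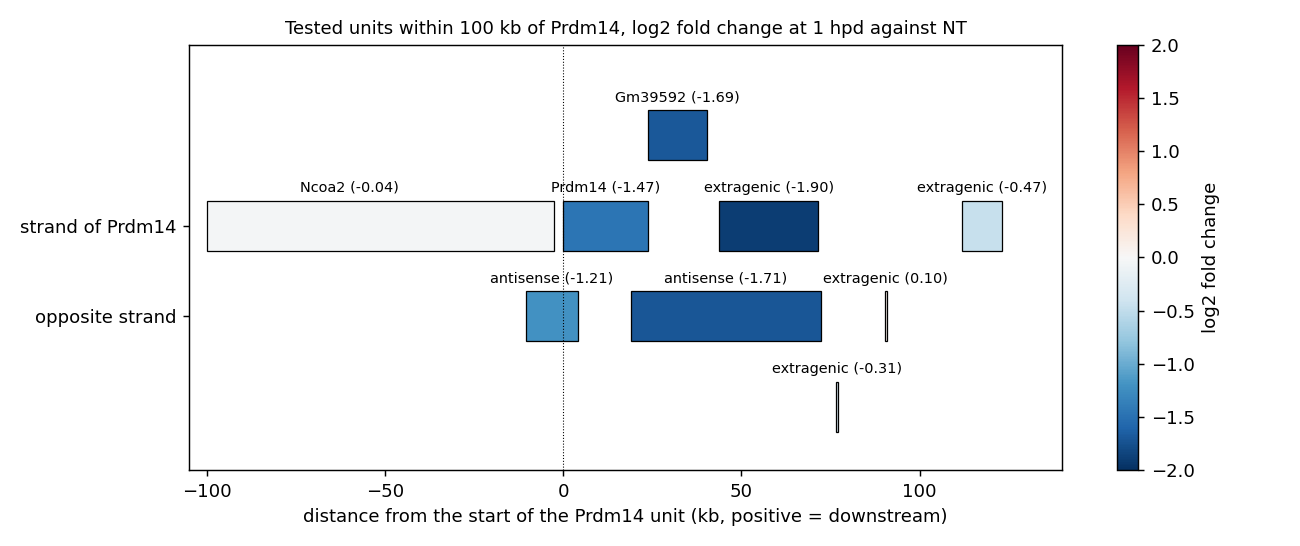
Tested units within 100 kb of Prdm14, drawn to scale by distance in kb from the start of the Prdm14 unit and coloured by log2 fold change at 1 h against NT (value in brackets); Ncoa2 is cut at 100 kb upstream and 2 units are moved up or down a row for legibility. Prdm14, Gm39592, the extragenic unit beyond it and both antisense units are between -1.21 and -1.90, whereas Ncoa2 is at -0.04.

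**Figure D4:**
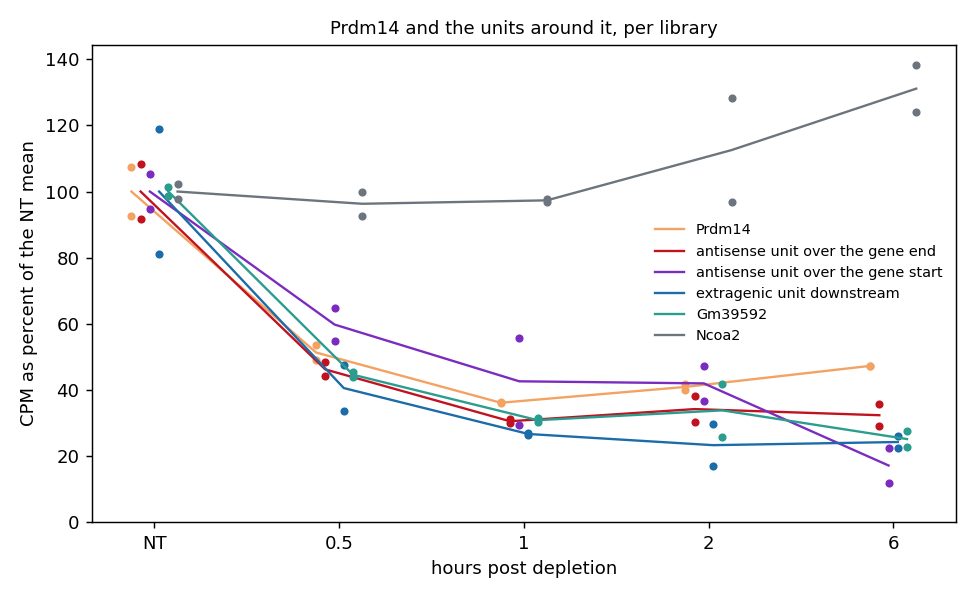
CPM of Prdm14 and the units around it in each library (points) as percent of the NT mean of that unit, with group means joined (y axis from 0), against hours post depletion. At 1 h Prdm14 stood at 36.1% and Ncoa2 was close to its NT level, and at 6 h Prdm14 was at 47.3% of NT, beside 32.4% and 17.2% for the antisense units over its end and its start and 24.3% for the extragenic unit.

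Esrrb, Nr5a2 and Tbx3 changed less and were called late in this fit. With the replicate number as a block, Tbx3 was called from 1 h and Esrrb and Nr5a2 from 2 h. Counts are over whole units, of 129 kb for Esrrb, 120 kb for Nr5a2 and 20.8 kb for Tbx3. Those of Nr0b1 and Prdm14 run 6.88 and 23.6 kb, and the part of unit length in timing and size was not tested. The Esrrb unit (chromosome 12, 86421791 to 86550770, plus strand) starts just after the annotated start whose window is printed above, far inside the longest annotated gene model, and runs 29.1 kb past the annotated end. Its CPM was 1144 and 1224 in NT, 1049 and 1098 at 0.5 h, 926 and 1013 at 1 h, 951 and 976 at 2 h and 802 and 843 at 6 h. All depleted libraries were below both NT libraries, and the pair at 6 h was the lowest. The log2 fold change went from -0.14 ± 0.105 (SE) at 0.5 h (adjusted p = 0.786) over -0.29 at 1 h (adjusted p = 0.147) and -0.30 at 2 h (adjusted p = 0.0910) to -0.53 ± 0.105 at 6 h (adjusted p = 0.00324). The call at 6 h was lost without NT replicate 2, at -0.46 with an adjusted p of 0.0571.

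Nr5a2 (chromosome 1, 136833843 to 136953894, minus strand) had 524 and 470 CPM in NT, 431 and 372 at 0.5 h, 422 and 393 at 1 h, 427 and 333 at 2 h and 340 and 353 at 6 h. Each depleted library lay below both NT libraries, but the 2 libraries at 2 h were far apart. The log2 fold change was -0.31 ± 0.127 (SE) at 0.5 h (adjusted p = 0.408), -0.29 at 1 h (adjusted p = 0.249), -0.39 at 2 h (adjusted p = 0.0690) and -0.52 ± 0.127 at 6 h (adjusted p = 0.0118). The 6 h call was lost without NT replicate 1 (-0.42), 6hpd replicate 1 (-0.48) or 6hpd replicate 2 (-0.55), with adjusted p between 0.0604 and 0.0867. In the test of all 4 time points together Nr5a2 did not pass (adjusted p = 0.0810), whereas Esrrb did (adjusted p = 0.0247); 12.3% of all tested TUs passed that test.

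Tbx3 (chromosome 5, 119671232 to 119692008, plus strand) had 250 and 307 CPM in NT, 218 and 259 at 0.5 h, 199 and 211 at 1 h, 193 and 225 at 2 h and 174 and 183 at 6 h. The 0.5 h libraries overlapped those of NT, and all later libraries were lower. Against NT this was a log2 fold change of -0.23 ± 0.124 (SE) at 0.5 h (adjusted p = 0.640), -0.44 ± 0.125 at 1 h (adjusted p = 0.0507), -0.41 ± 0.124 at 2 h (adjusted p = 0.0474) and -0.64 ± 0.125 at 6 h (adjusted p = 0.00272). The values at 1 and 2 h sit on either side of the threshold, and the 2 h call was lost without any 1 of 6 libraries (NT replicate 2, either 1hpd library, 2hpd replicate 1 or either 6hpd library), with values between -0.26 and -0.41. It was also lost with RLE factors (adjusted p = 0.0655), without the count filter (0.0507), when TUs averaging under 50 fragments were left out (0.0511) and with only the libraries compared (0.102), and DESeq2 called the gene at 1 h (0.0343). The 6 h call was lost without NT replicate 2, at -0.47 with an adjusted p of 0.0720. Without that library, 3 of the 6 genes were called lower at 6 h.

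Tfcp2l1 showed no called change. Its unit (chromosome 1, 118620745 to 118719912, plus strand) starts 7.2 kb before the annotated start, so the TATA box printed above lies inside the unit. The libraries held 931 and 1017 CPM in NT, 846 and 869 at 0.5 h, 826 and 915 at 1 h, 1031 and 1035 at 2 h and 929 and 1037 at 6 h. The libraries at 0.5 and 1 h were below both NT libraries, those at 2 h above, and those at 6 h overlapped them. The log2 fold changes were -0.18 ± 0.109 (SE), -0.16, 0.085 and 0.014, with adjusted p from 0.472 to 0.946. At 6 h the 95% interval of the fold was 0.860 to 1.19, so a change of the size of Esrrb, Nr5a2 or Tbx3, at folds of 0.694, 0.697 and 0.642, lay outside it. That the change of Tfcp2l1 differs from those of the other genes was not tested. The sign at 2 and 6 h turned with scaling to library totals, at -0.029 and -0.078, and that at 6 h turned when TUs averaging under 50 fragments were left out (-0.0395).

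Between depleted time points, 24 comparisons were made for the 6 genes (1 with 0.5, 2 with 1, 6 with 2 and 6 with 1 h). Of these, 0 passed in edgeR without a block or in DESeq2, and 7 had an unadjusted p under 0.05 in edgeR. Few TUs passed these comparisons at all, namely 0.109%, 0.218%, 0.777% and 4.88% of those tested. For Nr0b1 the log2 fold change from 0.5 to 1 h was -0.79 ± 0.186 (SE; adjusted p = 0.194) and from 1 to 2 h 0.63 ± 0.187 (adjusted p = 0.375). For Prdm14 the step from 0.5 to 1 h was -0.51 ± 0.111 (adjusted p = 0.138). The order of the decrease and the partial return of both genes thus rest on values that did not pass in this fit. With the replicate number as a block, some of the 24 comparisons passed, as given with the alternatives below.

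Over all 6 loci, 22 of the 41 extragenic and antisense TUs had enough fragments to be tested, 14 extragenic and 8 antisense, and 15 of these had a mean of under 50 fragments a library. Those called lower were 2, 2, 3 and 5 at 0.5, 1, 2 and 6 h, beside 0.758%, 3.65%, 5.82% and 10.8% of all tested extragenic and antisense TUs. Those called lower at 0.5, 1 and 2 h were all at Prdm14. The median log2 fold change of the 22 was -0.42, -0.35, -0.38 and -0.81, beside -0.09, -0.17, -0.20 and -0.26 for all such TUs. None was called higher by edgeR or DESeq2, beside 0.186%, 0.587%, 1.34% and 2.41% of all such TUs by edgeR, with 1 positive change at an unadjusted p under 0.05 at 6 h and 0 at the earlier times.

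At Nr0b1 the 2 tested units held too few fragments to say much. The unit antisense to its start (chromosome X, 86186560 to 86192018, minus strand) had 0.269 and 1.24 CPM in NT and 0.188 and 0.171 at 1 h, with NT libraries that spread widely. Its log2 fold change at 2 h was -1.73 ± 0.725 (SE; adjusted p = 0.154), and no time point passed, on a mean of 5.9 fragments a library. A short extragenic unit 72.0 kb away stayed between -0.26 and 0.13 at the 4 times, with adjusted p of 0.825 or more.

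Inside Esrrb, a 98.4 kb antisense unit (chromosome 12, 86423575 to 86521965, minus strand) had 57.7 and 69.5 CPM in NT and 52.1 in both libraries at 6 h. It was not called, with log2 fold changes of -0.18, -0.28, -0.25 and -0.29 and adjusted p from 0.119 to 0.746. The unit antisense to the start of Nr5a2 (chromosome 1, 136949201 to 136962548, plus strand) had 3.43 and 2.47 CPM in NT and 1.55 and 1.75 at 6 h. Each of its depleted libraries was below both NT libraries, and the log2 fold changes of -0.70, -0.63, -0.90 and -0.84 did not pass, with adjusted p from 0.0704 to 0.426. An extragenic unit of 0.465 kb, 75.2 kb from Nr5a2, had changes from -0.89 to -0.04 that did not pass either.

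Platr22, a non-coding pluripotency-associated transcript whose unit lies 98.7 kb from that of Nr5a2, was called higher once. It had 13.7 and 18.7 CPM in NT, 27.9 and 31.6 at 0.5 h, 20.5 and 23.9 at 1 h, 17.4 and 18.5 at 2 h and 15.1 and 18.7 at 6 h. The libraries at 0.5 and 1 h lay above both NT libraries and later ones did not. On the log2 scale the change was 0.87 ± 0.158 (SE; adjusted p = 0.0116) at 0.5 h and 0.46 ± 0.160 (adjusted p = 0.129) at 1 h, and the call was lost without NT replicate 1 (0.66) or 0.5hpd replicate 2 (0.80).

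At Tfcp2l1, whose own transcription was not called, the unit antisense to its start (chromosome 1, 118613639 to 118636330, minus strand) was lower at 6 h. It had 6.13 and 9.08 CPM in NT and 3.65 and 4.72 at 6 h, a log2 fold change of -0.85 ± 0.224 (SE; adjusted p = 0.0181) that was not called without NT replicate 2 (-0.52) or 6hpd replicate 1 (-0.67). A unit antisense to the gene body had changes from -0.34 to -0.86 that did not pass, and a long extragenic unit upstream (118492209 to 118582053, plus strand) was between 0.03 and 0.31 with adjusted p of 0.161 or more. Gli2, a transcriptional effector of Hedgehog signalling 83.6 kb downstream, was called lower at 6 h (732 and 743 CPM in NT, 554 and 597 at 6 h, log2 fold change -0.36 ± 0.110, adjusted p = 0.0388), a call that was lost with RLE factors (adjusted p = 0.0741) and without either library of NT, 1hpd or 6hpd (-0.41 to -0.29).

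At Tbx3 the calls were late as well. An extragenic unit 81.2 kb away (chromosome 5, 119585370 to 119590035, plus strand) had 1.55 and 2.47 CPM in NT and 0.983 and 0.757 at 6 h, a log2 fold change of -1.21 ± 0.359 (SE; adjusted p = 0.0333) that DESeq2 did not call (adjusted p = 0.128) and that was lost without NT replicate 2 (-0.82) or either 6hpd library (-1.38 and -1.02). A second extragenic unit, 25.4 kb away (119717430 to 119721384, minus strand), was lowest at 1 h. It had 0.538 and 0.799 CPM in NT, 0.507 and 0.342 at 0.5 h, 0.125 and 0.114 at 1 h, 0.152 and 0.701 at 2 h and 0.421 and 0.349 at 6 h, on a mean of 6.7 fragments a library. Its log2 fold change of -2.41 ± 0.761 (SE) at 1 h did not pass (adjusted p = 0.0859), nor did those at the other times. Gm16064, whose unit ends 0.011 kb before that of Tbx3 on the same strand, was called lower at 6 h at -0.63 ± 0.203 (adjusted p = 0.0477), and this call was lost with RLE factors, without the count filter, in DESeq2 and without either library of NT, 1hpd or 6hpd or without 0.5hpd replicate 2 (-0.72 to -0.52). Tbx3os2, a non-coding gene on the minus strand whose unit spans the whole of Tbx3, had 24.2 and 29.1 CPM in NT and 22.3 and 20.2 at 6 h and was not called (log2 fold changes from -0.32 to 0.00).

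The SOX2-OCT4 composite motif was also searched on both strands of each unit and the 100 kb on either side. It had 2 matches at Tbx3, 1 each at Prdm14, Esrrb and Nr0b1 and 0 at Nr5a2 and Tfcp2l1, or 0.00 to 9.06 matches per Mb, beside 8.96 per Mb over all chromosomes.

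Other genes of the naive and core pluripotency network were read beside the 6. Of the 19 genes on that list, all of which were tested, 2, 8, 9 and 10 were called lower at 0.5, 1, 2 and 6 h and 1 was called higher at each time, beside 0.813%, 3.57%, 5.34% and 7.75% of gene TUs called lower and 0.834%, 3.55%, 6.88% and 10.4% called higher. The medians of the list were -0.18, -0.40, -0.39 and -0.60. Values are for whole deposited units, which can include flank, such as the 49.9 kb unit of Pou5f1. The list was chosen with results of these libraries known, so its counts are a description and not independent evidence.

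The largest decrease on the list was that of Klf2, a Krüppel-like factor gene, at -2.58 ± 0.131 (SE) at 0.5 h and -3.58 at 6 h. Lifr, which encodes a subunit of the LIF receptor, was called at every time, at -0.67, -1.50, -1.76 and -1.42, although the 0.5 h call was lost without either NT library or 0.5hpd replicate 2 (-0.74 to -0.50). Klf4 (-1.04 at 6 h), Mycn (-1.03) and Fgf4 (-1.42) were called lower from 1 h, and so was Tcf7l1 (-0.58), which encodes a repressor of the network and whose 1 h call was lost with RLE factors (adjusted p = 0.0638). Klf5 was called lower at 1 h (-0.52) and 6 h (-0.72), and Sall4 at 1 h only (-0.37), a call that was lost with RLE factors (adjusted p = 0.0872), without the count filter (0.0777), in DESeq2 (0.0520) and in 8 of the 10 fits that each left out 1 library.

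Pou5f1, which encodes OCT4, was called lower at 2 h (-0.39; adjusted p = 0.0536 with RLE factors and 0.112 with only the libraries compared) and 6 h (-0.62), Nanog at 2 h (-0.51) and 6 h (-0.43) and Tcl1 at 2 h (-0.89) and 6 h (-1.51). Stat3, the effector of LIF, was called higher at 1, 2 and 6 h (0.54, 0.59 and 0.35) and its feedback inhibitor Socs3 at 0.5 h (0.87; adjusted p = 0.0762 with library totals and 0.0593 when TUs averaging under 50 fragments were left out). Transcription of Sox2 itself, read over a unit of 44.0 kb, was not called (log2 fold changes from -0.12 to 0.09). It was 243 and 283 CPM in NT and 271 and 278 at 6 h. Since dTAG-13 acts on the protein, this value checks neither the labels nor the depletion.

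**Figure D5:**
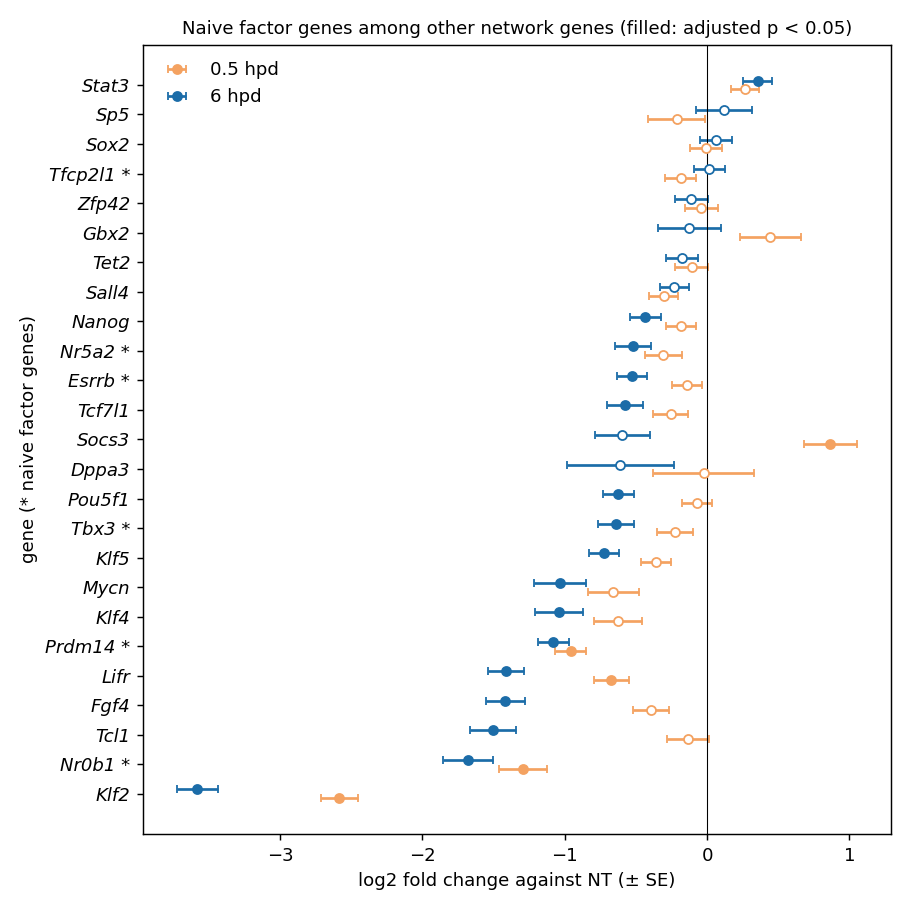
Log2 fold change against NT (x axis; bars are SE) of the 6 naive factor genes (asterisks) and the 19 other network genes at 0.5 h (orange) and 6 h (blue), ordered by the value at 6 h, with filled points at an adjusted p under 0.05. Klf2 lies lowest at -3.58, Nr0b1 and Prdm14 are among the genes already lower at 0.5 h, and Esrrb, Nr5a2 and Tbx3 are filled only at 6 h.

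Lists of partners and targets of the 6 factors held called genes in both directions, and their counts are read beside the shares of gene TUs given above. Genes with a change of under 1 on the log2 scale are named here because they make up a count of 5 or fewer, and were picked after their values were seen. Here and in the family and marker lists below, such genes other than Ncoa2, and Nr2f2, were not followed through the alternative fits. Of 11 cofactor genes, 10 were tested. Ncoa3, a coactivator that works with ESRRB, was called higher at 1, 2 and 6 h (0.39, 0.45 and 0.42), Ncoa2 at 6 h, and Runx1t1, a relative of Cbfa2t2, was called lower at 2 h (-1.52). Of 7 DNA methylation and FGF receptor genes linked to PRDM14, 5 were tested and 0 were called at 0.5 or 1 h. Fgfr2, an FGF receptor gene, was called higher at 2 h (0.78, lost without NT replicate 2 at 0.61 or 2hpd replicate 1 at 0.66) and 6 h (1.84), when its CPM was 42.8 and 36.3 beside 12.4 and 9.59 in NT. Dnmt3a, a de novo DNA methyltransferase gene, was called higher at 6 h (0.60), and Uhrf1, which encodes a factor for maintenance of methylation, was called lower at 2 and 6 h (-0.39 at both).

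Relatives of the 6 factors by family that were called were mostly called higher, and at 6 h 10.4% of gene TUs were called higher and 7.75% lower. Of 12 nuclear receptor relatives, 8 were tested and 2 were called, Nr2f2 (1.00) and Nr2c1 (0.70), both higher at 6 h. In the grainyhead family 4 of 5 were tested, and Grhl3 was called higher at every time (0.78, 0.91, 0.91 and 0.46). In the T-box family 6 of 16 were tested, and Eomes, a gene of early lineage choice, was called higher at 0.5, 1 and 2 h (1.52, 1.64 and 1.79) and not at 6 h (0.47), Tbx18 at 2 and 6 h (0.59 and 0.99) and Tbx20 at 6 h (0.92). In the PRDM family 9 of 14 were tested, and Mecom was called higher at 2 and 6 h (1.02 and 2.11, the former lost without NT replicate 2 at 0.94 or 2hpd replicate 1 at 0.79), Prdm11 likewise (0.75 and 0.98), and Prdm16 lower at 6 h (-0.85). Eomes and Mecom started from NT means of 2.42 and 2.16 CPM.

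Marker lists of cell types were read as well, and their part in the results above was not tested. Beside their counts, 0.813%, 3.57%, 5.34% and 7.75% of gene TUs were called lower at the 4 times. Those called higher were 0.834%, 3.55%, 6.88% and 10.4%. The stem cell markers Pou5f1, Sox2, Nanog and Zfp42 are also on the network list, so calls of Pou5f1 and Nanog count in both. Of the 7 embryonic stem cell markers, all tested, 1, 2, 4 and 4 were called lower, and their summed level was 2030 to 2280 CPM in NT and 1820 to 1940 at 6 h. Among them Utf1 was called lower at 1, 2 and 6 h (-1.14, -1.11 and -1.78), the first 2 calls being lost without NT replicate 2 (-0.79 at both) and that at 1 h also without 1hpd replicate 1 (-1.09). Dppa5a was called lower at all 4 times (-0.92, -1.04, -0.84 and -0.58), and only the 1 h call was kept without any 1 library, the others being lost without NT replicate 2 (-0.79, -0.71 and -0.44), the 0.5 h call also without either 0.5hpd library (-0.87 and -0.95) and the 6 h call without 6hpd replicate 2 (-0.33). Primitive endoderm markers (5 of 8 tested, with Sox17 left out for low counts and no unit matched to Foxa2) summed to 17.4 to 17.5 CPM in NT and 51.1 to 62.0 at 6 h, through Dab2 (1.92 at 6 h), with Gata6 called at 2 h (1.14; adjusted p = 0.0791 in DESeq2 and 0.0571 with library totals) and Gata4 not called. Fibroblast markers (3 of 6 tested) summed to 10.5 to 13.4 CPM in NT and 28.0 to 43.6 at 6 h, and only Pdgfrb was called (1.71 at 6 h). Trophoblast markers (3 of 7 tested, with Cdx2 left out for low counts and no unit matched to Elf5) summed to 48.4 to 50.9 CPM in NT and 23.5 to 27.8 at 6 h, and Krt8 (-1.95 at 2 h) and Tfap2c (-0.83 at 6 h) were called lower. Of the primed pluripotency markers, 4 of 7 were tested, and no unit matched Fgf5. Otx2 and Zic2 were called lower at all 4 times (-1.02 and -1.71 at 6 h) and Pou3f1 higher at 2 and 6 h (3.22 at 6 h, from an NT mean of 0.283 CPM).

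Profiles were also compared as log2 CPM over the 10 libraries, as a description, since libraries of a group share their time point and the points are not independent. Among the 6 genes, Nr0b1 and Prdm14 were most alike (r = 0.959), followed by Esrrb and Tbx3 (r = 0.947), and Tfcp2l1 had r between -0.18 and 0.24 with the other five. Among 10547 genes with a mean of at least 100 fragments, the 3 closest to Prdm14 included Ercc4 (r = 0.978) and Fam60a (0.977), and the 3 closest to Nr0b1 included Gm34343 (0.964) and Prdm14 (0.959). Those closest to Esrrb were Gm41563 (0.990), Slc4a8 (0.983) and Fbrsl1 (0.979), and those closest to Nr5a2 were Pole4 (0.989), Dnajb6 (0.973) and Morc1 (0.956). Tbx3 was closest to Ifitm5 (0.977), Rps10 (0.976) and Rpl31 (0.970), and Tfcp2l1 to 2810474O19Rik (0.948), Tmem101 (0.874) and Triml2 (0.872). The size of the change is not part of r: Gm41563 had a log2 fold change of -1.96 at 6 h, beside -0.53 for Esrrb. None of the 18 genes ranked in the closest 3 stayed there when r was taken over the 5 group means, so the names depend on the measure.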

How the data were processed

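TT_chem_seq libraries of 5 groups with 2 replicates each were used. According to the submitters' processing notes and methods, the authors used BWA 0.7.17-r1188 for alignment to mm10, filtered alignments with SAMtools 1.10, removed duplicates with Picard 2.12.0 and split the rest by strand. The authors pooled all libraries per strand and segmented the genome into transcribed units with a hidden Markov model, so 1 set of units serves every group. The deposited table holds raw fragment counts per unit, and libraries sum to 11131490 to 25854106 fragments. Unit coordinates are printed as deposited. The lower gene coordinate in that table lies 1 base below that of RefSeq for Nr5a2, Nr0b1 and Prdm14. For Esrrb, Tfcp2l1 and Tbx3 the gene models compared start further apart.

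Units were tested where 2 or more libraries had over 10 fragments (28459 of 40779; those left out held 0.316% of fragments). Counts were fitted with edgeR 4.0.16 in R 4.3.3 (quasi-likelihood F-test, TMM factors, all 10 libraries, 1 coefficient per group, no block), with p-values adjusted over all tested units and calls at 0.05. The SE is the size of the log2 fold change divided by the square root of F, and CPM uses the TMM factors. The script was tested on simulated counts. The precision of a value is set by its fragments and by 2 libraries a group.

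The genes, lists and tests were chosen with earlier results of these data known. The text names the 6 genes, for each gene the 2 extragenic or antisense units within 100 kb with the smallest p over the 4 time points and any unit that overlaps it on the other strand, other genes within 100 kb that were called, the called genes of the network list, genes of other lists called with a log2 fold change of at least 1, and the 3 genes most like each gene over 10 libraries; 1 gene is not reported here. Alternatives were DESeq2 1.42.0 (the study's tool), RLE factors, library totals, omission of the count filter, omission of units averaging under 50 fragments, only the libraries compared, a 50 kb window, the replicate number as a block, and each library left out. Promoters came from RefSeq on GRCm38.p6, and 6 entries for 4 of the 6 genes matched the genome.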

Additional observations from a re-analysis of the deposited data

How the results depend on the processing

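Calls of Nr0b1 and Prdm14 kept their direction and their side of the threshold at all 4 times under every alternative run, and no gene of the 6 was called higher under any. Among the other values the calls near the threshold moved, and the cause was not tested. With library totals, which shifted the median of all units to -0.13, -0.16 and -0.13 at 1, 2 and 6 h, 5 of the 6 genes were called lower at 1 h and 5 at 2 h: Esrrb at -0.38 and -0.41, Nr5a2 at -0.37 and -0.51, Tbx3 at -0.53 at 1 h, and Tfcp2l1 turned to -0.029 and -0.078 at 2 and 6 h without a call. With only the libraries compared, 5 genes were called lower at 1 h (Esrrb -0.27, Nr5a2 -0.26, Tbx3 -0.42), Tbx3 was not called at 2 h (-0.41), and 4 network genes were called lower at 0.5 h. DESeq2 called Tbx3 at 1 h (-0.42) and 4 network genes at 0.5 h. Tbx3 at 2 h was not called with RLE factors (-0.38), without the count filter (-0.40) or with a mean of at least 50 fragments (-0.45), a filter that left 3 neighbouring units called lower at 6 h, called Nr5a2 at 2 h (-0.42) and turned Tfcp2l1 at 6 h to -0.0395. With r over group means, 0 of the 18 most alike genes stayed among the closest 3.

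The labels give the replicates only a number, and the sources do not say whether it marks a shared day or culture. The replicate differences did correlate between groups, at 0.0544 to 0.663, with 8 of 10 pairs above 0.1. With that number as a block, 6 network genes were called lower at 0.5 h, 5 neighbouring units at 1 h, 5 genes at 2 h (Esrrb -0.30, Nr5a2 -0.39), Tbx3 at 1 h (-0.44) and 3 of 24 comparisons between times. The rise was general. Over all tested TUs, those called lower went from 224 to 596 at 0.5 h, from 1026 to 1747 at 1 h and from 1585 to 2733 at 2 h.

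Without 1 library in turn, the genes called lower at 6 h numbered 3 to 5 and those passing over all times 2 to 5 (2 without NT replicate 2 or either 6hpd library). Neighbouring units called lower numbered 1 to 2 at 0.5 h (1 without NT replicate 2 or 0.5hpd replicate 1) and 3 to 7 at 6 h (3 without NT replicate 2 or 6hpd replicate 1). Network genes numbered 1 to 4 at 0.5 h (1 without either NT library or 0.5hpd replicate 2, 4 without either 2hpd library) and 4 to 8 at 1 h (4 without NT replicate 2 or 1hpd replicate 1, 5 without 1hpd replicate 2). Esrrb at 6 h ranged from -0.56 to -0.46, Nr5a2 from -0.58 to -0.23 at 2 h and from -0.58 to -0.42 at 6 h, Tfcp2l1 at 6 h from -0.067 to 0.10, and Tbx3 from -0.56 to -0.27 at 1 h, -0.55 to -0.26 at 2 h and -0.76 to -0.47 at 6 h. Of the values for neighbouring units, the listed genes followed and the counts called higher, 851 were unchanged, 99 calls were lost and none turned. The unchanged values include the counts called higher, which stayed at 0 throughout. Calls that depended on 1 library included Klf4, Klf5, Sall4, Tcf7l1, Stat3, Krt8, Otx2 and Utf1 at 1 h. They also included Pou5f1, Nanog, Gata6 and Pou3f1 at 2 h, Socs3 and Otx2 at 0.5 h and Nanog, Stat3 and Tcf7l1 at 6 h. Depth limits the neighbouring units, since 15 of the 22 tested had a mean of under 50 fragments.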
